A study of Mus musculus with 6 samples.

Results

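The genes described here carry signals from Toll-like and TNF-family receptors to the NF-kB transcription factors, or limit those signals. The 48 genes were listed by symbol, without chemokines and without Tnf, and 42 of them were measured by a probeset with a single gene symbol, among 19938 genes in all. Irak4, Traf3, Ripk1, Ripk2, Chuk and Nfkb1 were not analysed here. The measured members comprised 11 receptors, 6 adaptors and IRAK kinases, 9 TRAF, IAP and TAK1-complex genes, 2 IKK subunits, 4 NF-kB subunits, 5 IkB proteins, 4 further inhibitors of signalling and the target gene Icam1.

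Expression was measured on Affymetrix arrays in Lin-Kit+Sca-1+ bone marrow cells of young adult wild-type FVB/nJ mice, the marrow fraction that holds haematopoietic stem cells and early progenitors. The control_vector samples (n = 3) had received the lentivirus pCAD-IRES-GFP, and the HLX_vector samples (n = 3) had received pCAD-IRES-GFP-Hlx, so that cells of both groups were infected, expressed GFP from the vector and were sorted for it after 2 days. All cells were infected in the presence of 8 µg/ml polybrene and kept in IMDM with serum and the mouse cytokines SCF, IL-3 and IL-6, and 3 ng of RNA from 5000 to 10000 cells was amplified for each array. The study's title gives its aim as finding genes regulated when HLX, a homeobox transcription factor, is overexpressed in these cells.

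In resting cells NF-kB dimers are held in the cytoplasm by IkB proteins. Receptor signals pass through adaptors such as MyD88 and through TRAF ubiquitin ligases to the TAK1 and IKK kinases, whose action leads to the loss of IkB and lets NF-kB enter the nucleus. A second route, through the kinase NIK, processes the NFKB2 precursor. Several inhibitors, among them IkB-alpha and A20, are themselves NF-kB target genes and close a feedback loop. Haematopoietic stem and progenitor cells carry Toll-like receptors and respond to their ligands.

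Because many genes of the pathway are targets of NF-kB, the sequence before their start sites is shown first. The kappaB consensus, a motif of 10 letters, was searched on both strands in the 250 bases before each annotated start (RefSeq, build GRCm38.p6). Of the 42 measured members 34 had an entry, and 10 of these (29.4%) held at least 1 match, against 1204 of 27025 genes (4.46%) in the whole table. By single start sites the shares were 12 of 47 (25.5%) for the members and 1281 of 32851 (3.90%) for all. The members with a match were Tlr2, Tlr3, Map3k7, Cyld, Tnfaip3, Rel, Tnip1, Nfkbia, Nfkbie and Nfkb2. A match is a run of letters and not a measured binding site. The lines below show the members with matches whose levels are described in detail, on the strand of the gene, with capitals marking a match or a run of overlapping matches.
Tnip1 (chr11:54962962-54963023, minus strand, run starting 58 bases before the start): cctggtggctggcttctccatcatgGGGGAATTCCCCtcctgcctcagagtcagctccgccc
Nfkb2 (chr19:46304673-46304733, plus strand, 39 bases before the start): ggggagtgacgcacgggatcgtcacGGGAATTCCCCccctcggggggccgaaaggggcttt
Tlr2 (chr3:83841746-83841806, minus strand, 173 bases before the start): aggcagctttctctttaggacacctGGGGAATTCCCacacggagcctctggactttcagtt
Rel (chr11:23771026-23771086, minus strand, 92 bases before the start): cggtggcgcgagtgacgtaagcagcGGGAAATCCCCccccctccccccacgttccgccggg
Nfkbia (chr12:55492648-55492701, minus strand, 29 bases before the start): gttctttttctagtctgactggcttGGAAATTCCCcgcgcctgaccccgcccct
Nfkbie (chr17:45555569-45555628, plus strand, 106 bases before the start): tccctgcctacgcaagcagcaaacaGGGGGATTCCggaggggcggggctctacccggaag
Tnfaip3 (chr10:19015411-19015447, minus strand, 12 bases before the start): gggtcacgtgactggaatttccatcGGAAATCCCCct

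The run in Tnip1 holds 4 overlapping matches and reads the same on both strands, and those in Nfkb2, Tlr2 and Rel hold 3 overlapping matches each. Tnfaip3 has a further match whose first base lies 125 bases before the start. Nfkb2 has a further match 11 bases before this start, and 1 match before each of a pair of alternative starts further downstream.

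The arrays were alike, with median log2 levels over all probesets of 6.32 to 6.40 and correlations between arrays of 0.980 to 0.987. Hlx checked the labels, with log2 levels of 6.99, 7.29 and 7.62 with control vector and 10.75, 9.74 and 10.28 with HLX vector, and the adjusted p from limma was 0.0782. The progenitor marker Kit lay at 9.20 to 9.59 and Cd34 at 10.72 to 11.36 on all arrays, while Ly6a, the gene of Sca-1, was not analysed here. Of the 10 measured stem and progenitor markers 9 were lower with HLX vector, with Flt3, Myb and Mecom at an unadjusted p under 0.05. The summed linear level of that list was 6902 to 7053 with control vector and 5516 to 6446 with HLX vector. In the lowest quartile of array values lay 2 of 5 measured B cell markers (Ms4a1 and Cd79a) and 2 of 4 T cell markers (Cd3d and Cd3g). Cd79b, Vpreb1, Pax5 and Cd8a lay above the array median, and Cd79b was lower with HLX vector by a log2 difference of -0.63 ± 0.21 (SE, n = 3 per group) without overlap. The summed level was 486 to 747 with control vector and 344 to 524 with HLX vector for the B cell list, and 216 to 236 and 205 to 232 for the T cell list. The monocyte and macrophage list stood higher in HLX arrays in 9 of 11 measured markers, and its summed linear level was 1295 to 1474 with control vector and 1740 to 2158 with HLX vector. Csf1r, Cd68 and Lyz2 of that list were at an unadjusted p under 0.05, but the median log2 difference of the list was 0.038. Mrc1 and Fcgr1 were lower with HLX vector, Mrc1 without overlap. Of the 11 markers 7 lay below the array median, and Adgre1, Mrc1 and Mertk lay in the lowest quartile. In such bulk samples a larger share of cells of a type and more RNA per cell cannot be told apart.

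Levels are log2 values made by the authors with RMA, a method that brings arrays to a common scale and combines each probeset's probes into 1 value. Vectors were compared with limma, a linear model for each gene whose SE draws on the variance of all genes. None of the 42 members passed the adjusted threshold of 0.05 in limma's fit over all genes (0 of 42), and adjusted p ran from 0.951 to 0.9999. Over all 19938 genes 0 were called as well, which is 0%. At an unadjusted p under 0.05 stood 4 members, Tnip1, Traf1, Tirap and Nfkb2, all higher with HLX vector, or 9.52% of the members against 4.80% of all genes. Over all genes the share was 2.44% in the higher direction and 2.36% in the lower. The vectors did not overlap in 5 members, Tnip1, Traf1, Nfkb2 and Icam1 with HLX above and Tnfaip3 with HLX below. That is 11.9% of the members, against 9.19% of all genes, which split into 4.34% with HLX above and 4.85% with HLX below. Of the 42 members 25 were above 0 (59.5%, against 47.5% of all genes). Their median log2 difference was 0.049, against -0.0078 over all genes. The count of 4 changed when single arrays were left out. It was 2 without control replicate 1 (Tnip1 and Traf1) and 1 without control replicate 2 (Tnfrsf1a, lower). Without HLX replicate 3 it was 1 (Tnip1) and without HLX replicate 1 it was 3 (Tirap and Icam1 higher, Tab2 lower). It was 4 without control replicate 3 (Tnip1, Traf1 and Tlr6 higher, Tab2 lower). It was also 4 without HLX replicate 2 (Tnip1, Traf1, Nfkb2 and Bcl3, all higher). These fits also have fewer residual degrees of freedom. Across them the log2 difference was 0.25 to 0.36 for Tnip1, 0.28 to 0.46 for Traf1, 0.20 to 0.39 for Tirap and 0.19 to 0.35 for Nfkb2. In the 6 fits that left out 1 array, Tnip1 was at an unadjusted p under 0.05 in 4, Traf1 in 3, and Tirap and Nfkb2 in 1 each.

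**Figure D1:**
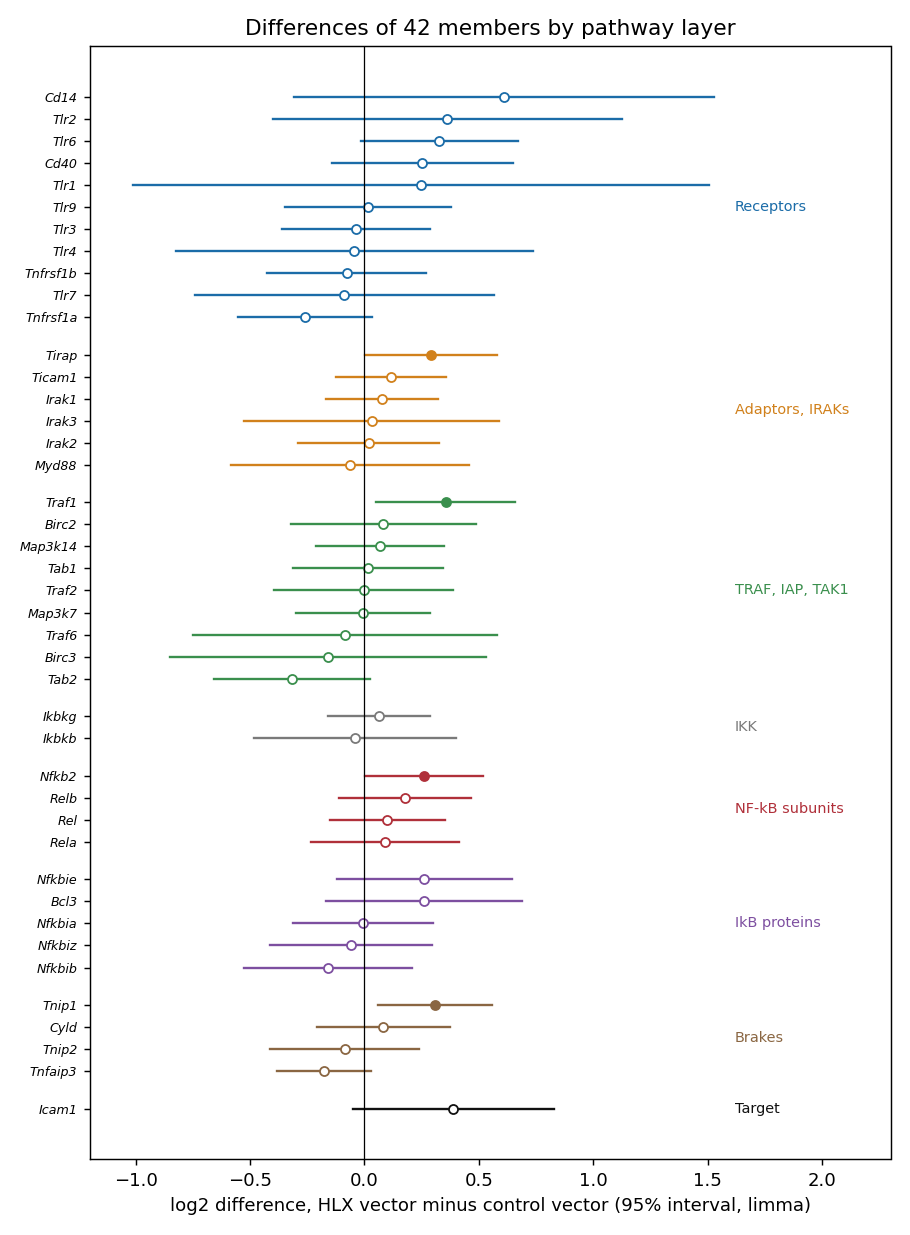
Log2 difference between HLX and control vector for the 42 measured members, grouped by pathway layer, with the 95% interval from limma; filled points have an unadjusted p under 0.05. The 4 filled points, Tirap, Traf1, Nfkb2 and Tnip1, lie between 0.26 and 0.36, and the other 38 intervals include 0.

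Among the receptors, 6 of 11 were above 0 and the median difference was 0.015 on the log2 scale, and none was at an unadjusted p under 0.05. Cd14, the coreceptor that hands lipopolysaccharide to TLR4, had log2 levels of 6.50, 7.60 and 7.38 with control vector and 7.31, 7.45 and 8.55 with HLX vector. Control replicate 1 was the lowest array and HLX replicate 3 the highest, and the other 4 lay between 7.31 and 7.60, so that the groups overlapped. The difference was 0.61 ± 0.39 (SE, n = 3 per group), with a 95% interval of -0.31 to 1.53 and an adjusted p from limma of 0.9999. It was 0.22 without HLX replicate 3 and 0.28 without control replicate 1.

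Tlr2, a receptor of bacterial lipoproteins that pairs with TLR1 or TLR6, was at 7.40, 8.62 and 8.41 with control vector and 8.29, 8.33 and 8.90 with HLX vector. The same arrays were lowest and highest as for Cd14, and the groups overlapped. Its difference of 0.36 ± 0.33 (SE, n = 3 per group) went to -0.0087 without control replicate 1. Tlr1 varied most of all members and was singled out after its values were seen, with 6.59, 5.86 and 6.26 with control vector and 7.80, 5.49 and 6.16 with HLX vector. HLX replicates thus held both its highest and its lowest value, 4.97-fold apart, and its difference of 0.25 ± 0.54 (SE, n = 3 per group) became -0.41 without HLX replicate 1. Tlr6, the other partner of TLR2, stood at a difference of 0.33 ± 0.15 (SE, n = 3 per group), with an unadjusted p from limma of 0.0589.

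Tlr4, the receptor of lipopolysaccharide, lay below the array median at 6.29, 5.89 and 5.14 with control vector and 5.58, 6.27 and 5.34 with HLX vector. The groups covered nearly the same range, and the difference was -0.044 ± 0.33 (SE, n = 3 per group). The endosomal receptor genes Tlr3, Tlr7 and Tlr9, which sense nucleic acids, were at differences of -0.037, -0.087 and 0.015. Tlr7 lay in the lowest quartile of array values, where RMA compresses differences.

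Of the TNF-family receptors, Tnfrsf1a, the type 1 TNF receptor, was the lowest of the layer. Its log2 levels were 8.34, 8.11 and 8.52 with control vector and 8.14, 8.06 and 8.00 with HLX vector. HLX replicate 1 lay just above control replicate 2, and the difference was -0.26 ± 0.12 (SE, n = 3 per group), with an unadjusted p from limma of 0.0730. Tnfrsf1b, the type 2 receptor, was at -0.078 ± 0.15 and Cd40, a receptor of antigen-presenting cells, at 0.25 ± 0.17.

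**Figure D2:**
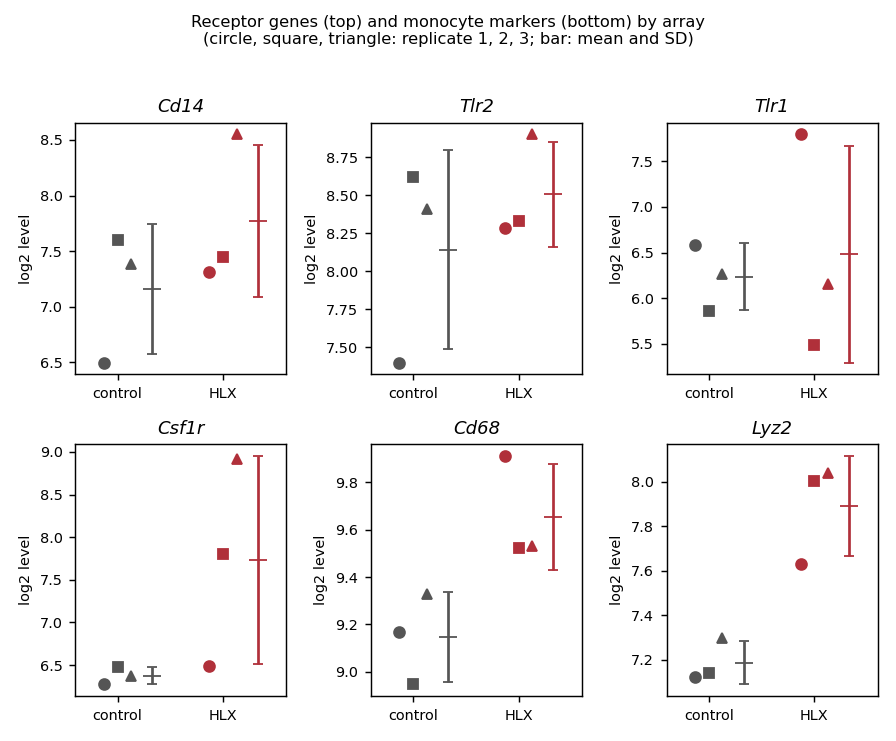
Log2 level of the receptor genes Cd14, Tlr2 and Tlr1 (top) and of the monocyte markers Csf1r, Cd68 and Lyz2 (bottom) on each array, with mean and SD by vector. HLX replicate 3 (triangle) is highest for Cd14, at 8.55, Tlr2, at 8.90, and Csf1r, at 8.92, while Tlr1 is highest on HLX replicate 1, at 7.80.

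HLX replicate 3, the highest array for Cd14, Tlr2 and Icam1, also had the highest summed level of the monocyte and macrophage list, 2158, against 1740 and 1795 on the other HLX arrays. Most of that lead in the sum came from Csf1r, the receptor of the macrophage growth factor M-CSF. Csf1r was at 6.28, 6.48 and 6.37 with control vector and 6.49, 7.80 and 8.92 with HLX vector. HLX replicate 1 thus lay 0.0086 above the highest control array, and the other HLX arrays stood well above it. Cd68 of the monocyte list was highest on HLX replicate 1, at 9.91. The summed neutrophil list was 298 on HLX replicate 3, 304 and 390 on the other HLX arrays and 275 to 289 with control vector. These higher sums rested mainly on Cxcr2, at 4.42, 4.74 and 4.26 with control vector and 5.32, 7.17 and 4.94 with HLX vector. All 8 neutrophil markers lay below the array median. Of them 5 were higher with HLX vector and 3 lower, Ltf and Camp without overlap. The dendritic cell list was at 2469 on HLX replicate 3 and at 2125 to 2654 with control vector. Control replicate 1, lowest for Cd14, Tlr2 and Icam1, had the highest summed mast cell and basophil list, 403, against 175 to 223 elsewhere. Most of that excess came from Cpa3, at 7.47 on this array and 4.77 to 5.10 on the others. All 6 markers of the list lay below the array median. The part of any of these cell types, or of the lower stem and progenitor markers, in the receptor values was not tested.

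In the adaptor layer 5 of 6 genes were above 0, the median being 0.054. Tirap, the bridging adaptor that brings MyD88 to TLR2 and TLR4, was at 6.75, 6.70 and 6.88 with control vector and 6.87, 7.25 and 7.09 with HLX vector. HLX replicate 1 lay just under control replicate 3, so the groups overlapped by a narrow margin. The difference was 0.29 ± 0.12 (SE, n = 3 per group) with an unadjusted p from limma of 0.0475 and an adjusted p of 0.9999.

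Myd88, the adaptor shared by most Toll-like receptors, was at 8.55, 8.33 and 8.65 with control vector and 8.43, 8.00 and 8.91 with HLX vector. HLX arrays held both the lowest and the highest value, and the difference was -0.065 ± 0.22 (SE, n = 3 per group). Irak3, an inhibitory member of the IRAK family, had the same order of HLX arrays, with 9.33, 8.60 and 9.57, against 9.03 to 9.27 on control arrays. Ticam1, the TRIF adaptor of TLR3 and TLR4, and the kinase genes Irak1 and Irak2 differed by 0.12, 0.076 and 0.018.

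Of the TRAF, IAP and TAK1-complex genes 4 of 9 were above 0, with a median of -0.0037. Traf1, a TRAF protein without a RING domain and a known NF-kB target, was at 6.13, 5.91 and 6.15 with control vector and 6.48, 6.21 and 6.57 with HLX vector. All HLX arrays lay above all control arrays, by 0.053 at the closest. Its log2 difference of 0.36 ± 0.13 (SE, n = 3 per group) is 1.28-fold, with an unadjusted p from limma of 0.0275 and an adjusted p of 0.987. Traf1 lay below the median of array values.

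Tab2, which links TAK1 to ubiquitin chains, was the lowest member by difference. It was at 9.97, 10.01 and 9.61 with control vector and 9.74, 9.47 and 9.43 with HLX vector, with HLX replicate 1 above control replicate 3. The difference was -0.32 ± 0.15 (SE, n = 3 per group) and the unadjusted p from limma 0.0639. Map3k7, the gene of TAK1 itself, and Tab1, its other partner, were at -0.0072 ± 0.12 and 0.016 ± 0.14. The signs of Map3k7 and of Traf2, at -0.0037, turned under median centring of the arrays. Map3k14, the gene of NIK, was at 0.067 ± 0.12.

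Birc3, an inhibitor-of-apoptosis ubiquitin ligase, ranged on HLX arrays from 7.72 to 8.87 and on control arrays from 8.15 to 8.77. Traf6, the ubiquitin ligase downstream of IRAK kinases, ranged from 6.59 to 7.38 on HLX arrays and from 6.73 to 7.62 on control arrays. Their differences, -0.16 and -0.085, were smaller in size than the spread between arrays of either vector, as was that of Birc2 at 0.083. Birc2 was the only measured member with more than 1 probeset, and its other probeset gave 0.071.

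The IKK subunits overlapped between vectors. Ikbkg, the regulatory subunit NEMO, was at 6.56, 6.60 and 6.57 with control vector and 6.76, 6.60 and 6.57 with HLX vector, so only HLX replicate 1 stood above the rest. Ikbkb, a catalytic subunit, was at 7.88, 7.34 and 7.54 and at 7.46, 7.32 and 7.87, with full overlap. Their differences were 0.065 ± 0.095 and -0.040 ± 0.19 (SE, n = 3 per group).

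All 4 measured NF-kB subunits were above 0, and their median was 0.14, but Rela went to -0.025 without control replicate 1. Nfkb2, the precursor processed on the NIK route, was at 7.77, 7.77 and 7.76 with control vector and 8.09, 7.84 and 8.15 with HLX vector. The control arrays lay within 0.0094 of one another and all HLX arrays lay above them, HLX replicate 2 by 0.063. The difference of 0.26 ± 0.11 (SE, n = 3 per group) is 1.20-fold, with an unadjusted p from limma of 0.0497 and an adjusted p of 0.9999. Relb, the partner of the NFKB2 product, stood at 0.18 ± 0.12.

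Rel, the subunit prominent in blood cells, was at 9.38, 9.47 and 9.21 with control vector and 9.56, 9.38 and 9.43 with HLX vector. Rela, the main activating subunit, was at 9.28, 9.68 and 9.56 and at 9.69, 9.42 and 9.67. For both genes the vectors overlapped, with differences of 0.10 ± 0.11 and 0.089 ± 0.14 (SE, n = 3 per group). The intervals, -0.15 to 0.35 for Rel and -0.23 to 0.41 for Rela, leave room for small differences either way.

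Among the IkB proteins 2 of 5 were above 0, with a median of -0.0070. Nfkbia, the gene of IkB-alpha and a prompt target of NF-kB, was at 8.10, 7.99 and 7.98 with control vector and 8.20, 7.76 and 8.08 with HLX vector. HLX arrays lay on either side of the control arrays, and the difference was -0.0070 ± 0.13 (SE, n = 3 per group), a sign that turned under median centring. The interval for Nfkbia, -0.31 to 0.30, is a fold of 0.804 to 1.23.

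Nfkbie, the gene of IkB-epsilon, was at 7.14, 6.64 and 7.19 with control vector and 7.12, 7.26 and 7.37 with HLX vector, where control replicate 2 stood low. Nfkbib, the gene of IkB-beta, was at 7.51, 7.29 and 7.14 and at 7.44, 7.02 and 7.01. Their differences were 0.26 ± 0.16 and -0.16 ± 0.16 (SE, n = 3 per group). The nuclear family members Bcl3 and Nfkbiz stood at 0.26 ± 0.18 and -0.059 ± 0.15, and the highest Bcl3 value, 7.91, was that of HLX replicate 1.

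The inhibitors of signalling outside the IkB family went both ways, 2 above 0 and 2 below. Tnip1, which encodes the A20-binding protein ABIN-1, was at 8.34, 8.12 and 8.27 with control vector and 8.65, 8.44 and 8.56 with HLX vector. Every HLX array lay above every control array, by 0.10 at the closest. The log2 difference of 0.31 ± 0.11 (SE, n = 3 per group) is 1.24-fold, and its unadjusted p from limma, 0.0218, was the smallest of the members (adjusted p = 0.951). Leaving out 1 array at a time gave 0.25 to 0.36 for Tnip1.

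Tnfaip3, the gene of the ubiquitin-editing enzyme A20, was at 7.39, 7.48 and 7.37 with control vector and 7.24, 7.24 and 7.23 with HLX vector. All HLX arrays lay below all control arrays, by 0.13 at the closest. The difference of -0.18 ± 0.087 (SE, n = 3 per group) corresponds to 1.13-fold lower, with an unadjusted p from limma of 0.0791. The partner genes thus lay on opposite sides of 0, and the contrast between them was not tested. Tnip2, the gene of ABIN-2, and Cyld, a deubiquitinase, differed by -0.086 and 0.083.

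**Figure D3:**
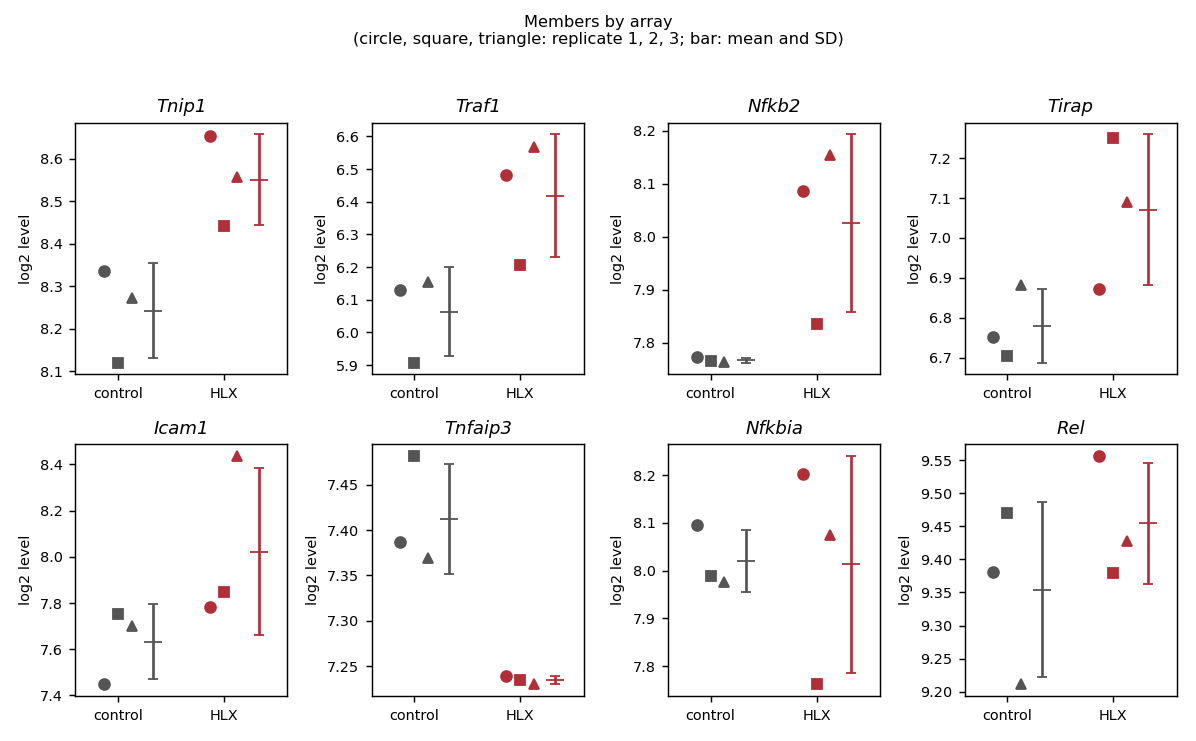
Log2 level of 8 members on each array, with mean and SD by vector. Tnip1, Traf1, Nfkb2 and Icam1 have all 3 HLX arrays above the control arrays, Tnfaip3 has them below, and Tirap, Nfkbia and Rel overlap.

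Icam1, the adhesion molecule listed as a target of the pathway, was at 7.45, 7.75 and 7.70 with control vector and 7.78, 7.85 and 8.44 with HLX vector. The vectors did not overlap, but the gap was 0.031, and HLX replicate 3 stood 0.59 above the next array. The difference of 0.39 ± 0.19 (SE, n = 3 per group), with an unadjusted p from limma of 0.0756, was 0.18 without HLX replicate 3. That array also had the highest summed level of the monocyte list, mostly through Csf1r, and the part of such cells in the Icam1 value was not tested.

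The members with a kappaB match did not lean one way. Of these 10 genes 6 were above 0 and 4 below. Their log2 differences ran from -0.18 to 0.36, and the median was 0.092. Among the 24 members with an entry but no match 15 were above 0, with a median of 0.049 and a range of -0.32 to 0.39. Tnip1 and Nfkb2 had all HLX arrays above control, and Tnfaip3 had all below. Nfkbia and Rel, also with matches, overlapped between vectors, whereas Traf1 and Icam1 held no match in this window.

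**Figure D4:**
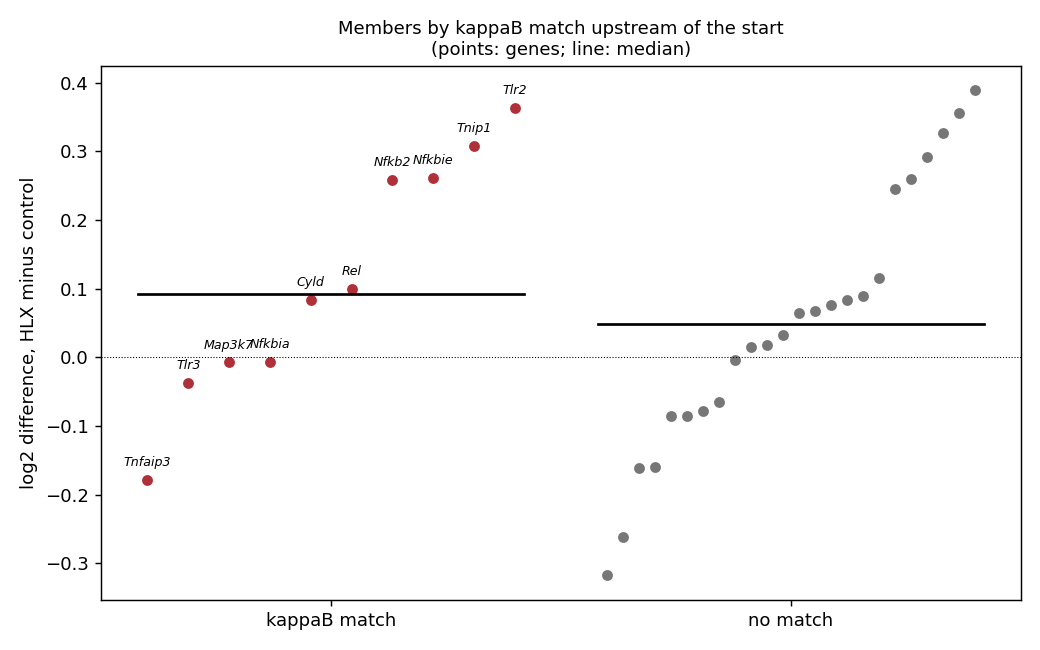
Log2 difference between HLX and control vector for 34 members, by presence of a kappaB match in the 250 bases before a start; points are genes and lines medians. The medians are 0.092 for the 10 genes with a match and 0.049 for the 24 without, and both sets spread across 0.

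Across arrays, the members varied more than the median gene. Their median SD within a group was 0.20 log2 units against 0.16 over all genes, and 29 of 42 lay above the latter. The genes compared were not matched for level. The median level per array was 7.29 to 7.61 for the members and 6.50 to 6.62 for all genes. HLX replicate 3 held the highest value for 15 members (35.7%), against 24.6% of all genes, and HLX replicate 1 for 10 members (23.8%, against 15.1%). HLX replicate 2 held the lowest value for 9 members (21.4%), against 24.4% of all genes, among them Tlr1, Myd88, Irak3 and Birc3. Control replicate 3 was highest for 1 member, Tnfrsf1a (2.38%, against 17.0% of all genes). For 16 members the level lay in the top quartile of array values, and for 6 below the array median.

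**Figure D5:**
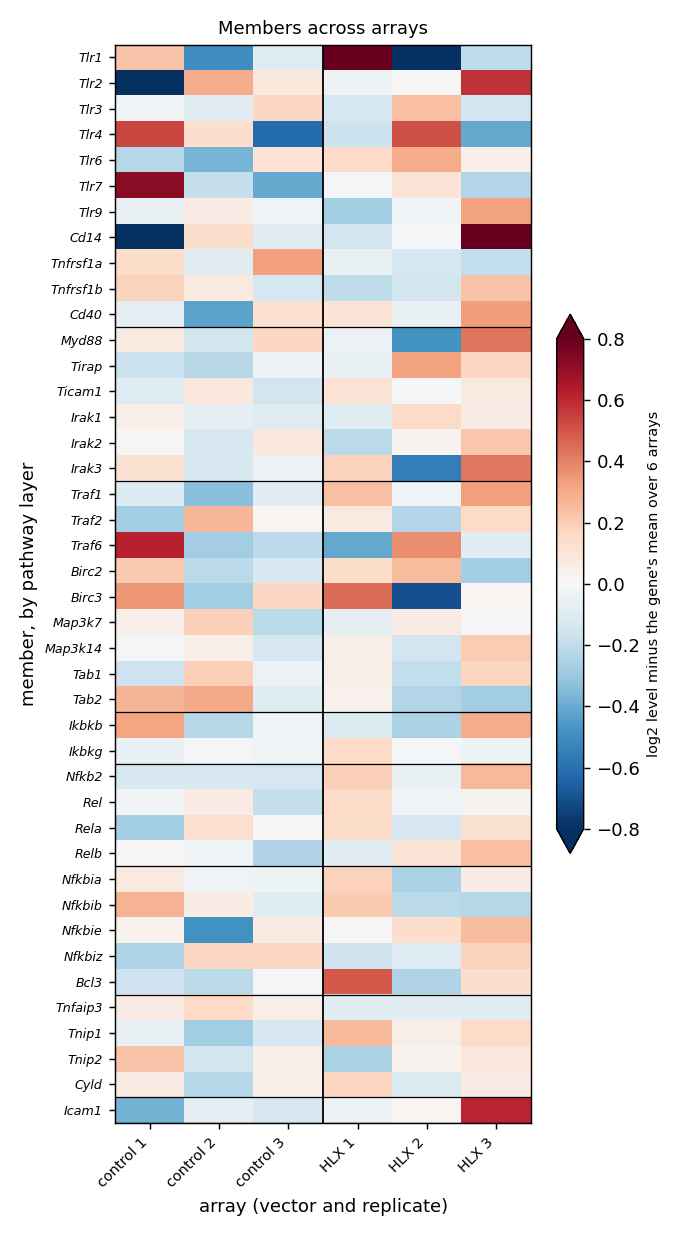
Log2 level of each member on each array minus the gene's mean over the 6 arrays, by pathway layer, with colours capped at 0.8 in either direction. Cd14 and Tlr2 are low on control replicate 1, and the row of Tlr1 holds its highest and lowest values on HLX replicates 1 and 2.

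Beyond the members, 91 further pathway genes were listed and 85 were measured. The median log2 difference was 0.050, with 54 genes (63.5%) above 0, and 7 were at an unadjusted p under 0.05 (8.24%, against 4.80% of all genes), 6 higher and 1 lower. None passed the adjusted threshold in limma (0 of 85), where the smallest adjusted p was 0.932. Bcl10, the scaffold that joins CARD proteins to IKK activation, was at 6.63, 6.63 and 6.47 with control vector and 6.85, 7.06 and 6.91 with HLX vector. Its groups did not overlap, and the difference was 0.36 ± 0.10 (SE, n = 3 per group). Card9, its partner in myeloid cells, was at 5.95, 6.33 and 6.42 and at 6.48, 6.80 and 6.65, a difference of 0.41 ± 0.15.

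Gadd45b, a stress-response target of NF-kB, was at 7.42, 6.60 and 7.02 with control vector and 7.69, 8.07 and 7.46 with HLX vector. Its difference of 0.73 ± 0.23 (SE, n = 3 per group) is 1.65-fold. Irf1 and Bcl2l1, an interferon-response factor and a survival gene, stood at 0.45 ± 0.18 and 0.46 ± 0.15, and Il1rap, the shared subunit of IL-1 family receptors, at 0.32 ± 0.11. Peli2, a ubiquitin ligase that acts on IRAK proteins, was lower at 7.35, 7.19 and 7.23 with HLX vector against 7.50, 7.59 and 7.58 with control vector, a difference of -0.30 ± 0.093. The groups did not overlap in these 7 genes, which were named for their p, and in Tbk1. That is 8 of 85 further genes (9.41%), near the 9.19% of all genes. Ly96, the MD-2 partner of TLR4, had the widest difference of the list, 0.80 ± 0.54, and its groups overlapped.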

How the data were processed

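Each array came with 1 deposited log2 value per probeset. The submitters' processing notes name RMA and Affymetrix Power Tools. RMA compresses weak signals. No label names the genome build of the probes. Of 35556 probesets 21789 had 1 gene symbol in the platform annotation, 1621 had several and 12146 were unlisted. The brightest probeset per gene, by mean over the 6 arrays, gave 19938 genes, with no filter on dim ones. HLX and control vector were compared with limma 3.58.1 in R 4.3.3 (lmFit and eBayes, 2-sided, no covariates, 4 residual degrees of freedom), with Benjamini-Hochberg adjustment over all genes. The number of arrays limits the precision. With 3 arrays per group an exact permutation test cannot go below 0.1. The code was tested on simulated data.

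The labels do not say whether replicates came from separate mice or cultures, so p-values reflect only how these samples spread, possibly for technical reasons. Members and lists were chosen with earlier results of these data known. Array values were given for members at an unadjusted p under 0.05, members without overlap, the highest and lowest difference of each layer and 10 genes fixed by name, of which 9 were measured. Of the further pathway genes, those at an unadjusted p under 0.05 were named, and Tlr1, Tlr6, Irak3 and Ly96 were singled out after their values were seen. Array quartiles refer to all probeset values.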

Additional observations from a re-analysis of the deposited data

How the results depend on the processing

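No member passed the adjusted threshold in limma under any of 15 other settings (0 of 36 measured members without dim probesets, 0 of 42 in each of the others). The sign of the difference was kept by 18 of the 42 in all settings that measured them, among them Tnip1, Traf1, Nfkb2, Tirap, Icam1 and Tnfaip3. Many of these settings could not turn a sign. Leaving out dim probesets, the variance prior and the replicate block do not change a member's difference. For the 5 members without overlap, leaving out arrays cannot turn it either. The count at an unadjusted p under 0.05, 4 with all arrays, was 1 without dim probesets (Tnip1), 2 with a trended and robust variance prior (Traf1 and Tlr6), and 1 to 4 when 1 array was left out. It was 5 when quantile normalization was repeated and 6 with cyclic loess, another normalization. In both, Tnfrsf1a and Tab2 were among them, lower with HLX vector. Under median centring it was 5, all higher, and with weights for the arrays it was 3, all higher. With the replicate number as a replicate block it was 5, with Tnip1, Traf1, Icam1 and Cd40 higher and Tab2 lower but without Tirap and Nfkb2, and limma again called 0 members. Same-numbered arrays were not treated as pairs in the main fit. Over all genes their deviations from the group means correlated at 0.20, 0.0085 and 0.14, and over the members at 0.28, 0.078 and 0.46. Control replicates 1 and 3 correlated best with the same-numbered HLX array, whereas control replicate 2 correlated best with HLX replicate 3 (0.11 over all genes). The count of members was 1 (Tirap) when both arrays numbered 1 were left out, an alternative added after seeing the data. The trended and robust prior also called 1 gene of all, Hlx (2.95, adjusted p = 0.0377). Median centring moved the split of all genes at an unadjusted p under 0.05 from 487 higher and 471 lower to 612 and 376. The median difference of the members ran from 0.031 without HLX replicate 1 to 0.13 without HLX replicate 2. With 3 arrays per group the 95% interval included 0 for 38 of the 42 members.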
